A study of Mus musculus with 30 samples.

Results

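The genes described here copy the DNA of dividing cells. They are 38 genes of DNA replication and S phase, taken from a list of named genes. For each gene the transcript row with the highest mean over the tumours was used. The genes were picked by name, with earlier results of these data known. All 38 were found among the 20849 named genes of the table, and all 38 reached the mean of 1 RPKM (read counts per unit of transcript length and of library size) required for testing, as did 13613 genes in all. The series holds 30 mammary tumours induced by PyMT, the polyoma middle T antigen, 1 from each of 30 backcross mice. The mice came from the cross ((MOLF x PyMT) x FVB), in which MOLF and FVB are inbred mouse strains. The labels give no treatment, genotype at any locus, age or promoter of the transgene, so the tumours form 1 group and were described by how their genes vary together. What was extracted was RNA of mammary tumour tissue, which holds stroma and other cells beside tumour cells, and the share of each is not in the labels.

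Replication starts when the origin recognition complex, with CDC6 and CDT1, loads rings of MCM2-7 onto DNA in G1. In S phase the ring is joined by CDC45 and the GINS complex, which turns it into a moving helicase. Primase and polymerase alpha then lay down primers, and polymerases epsilon and delta extend them while held on DNA by the PCNA clamp. Most of these genes are transcribed as cells enter S phase, under the E2F transcription factors. Their transcripts are widely used as a readout of how many cells of a tumour are dividing.

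Promoter sequences are shown first. The transcripts of these genes moved together across the tumours, as described below, and the part of the promoters in this was not tested. The RefSeq promoter table of assembly GRCm38.p6, which holds 250 bases before and 50 after each gene's start, had an entry for 30 of the 38 genes. The stretches below are the 200 bases before the start that this promoter table gives for 6 genes, 5′ to 3′ on the gene's own strand. Capitals mark every exact match, on either strand, to the letters TTTGGCGC, TTTCCCGC, TTTCGCGC or TTTGCCGC, which are E2F-type motifs, or to CCAAT. Ccne1 had the steepest and Pole2 the shallowest slope on the mitotic score described below. E2f1 encodes an E2F factor, and Mcm7, Mcm10 and Cdc6 encode a helicase subunit, a helicase activator and a helicase loader. Their positions were chr7:38107491-38107690 for Ccne1, chr12:69228191-69228390 for Pole2, chr2:154569427-154569626 for E2f1, chr5:138171884-138172083 for Mcm7 and chr2:5012792-5012991 for Mcm10, all on the minus strand. The position of Cdc6 was chr11:98907951-98908150 on the plus strand.
Ccne1: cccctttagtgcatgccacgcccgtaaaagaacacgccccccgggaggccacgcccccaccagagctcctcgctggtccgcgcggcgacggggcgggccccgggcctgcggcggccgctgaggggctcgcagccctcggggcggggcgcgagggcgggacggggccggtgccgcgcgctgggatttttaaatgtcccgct
Pole2: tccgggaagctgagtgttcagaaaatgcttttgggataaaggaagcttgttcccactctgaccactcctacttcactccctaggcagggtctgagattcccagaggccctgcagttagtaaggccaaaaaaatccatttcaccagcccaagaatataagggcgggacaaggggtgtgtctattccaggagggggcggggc
E2f1: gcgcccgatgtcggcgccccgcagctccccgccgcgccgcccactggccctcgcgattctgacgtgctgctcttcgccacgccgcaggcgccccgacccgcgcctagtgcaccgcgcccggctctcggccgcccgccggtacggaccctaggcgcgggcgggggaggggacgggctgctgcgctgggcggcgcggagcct
Mcm7: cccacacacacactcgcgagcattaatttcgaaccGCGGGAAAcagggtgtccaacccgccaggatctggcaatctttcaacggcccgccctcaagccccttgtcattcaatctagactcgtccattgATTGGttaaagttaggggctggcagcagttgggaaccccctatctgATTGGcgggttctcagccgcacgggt
Mcm10: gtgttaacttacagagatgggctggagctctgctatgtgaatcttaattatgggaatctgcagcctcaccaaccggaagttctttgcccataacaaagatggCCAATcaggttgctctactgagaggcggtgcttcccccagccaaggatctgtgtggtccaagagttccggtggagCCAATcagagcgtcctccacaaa
Cdc6: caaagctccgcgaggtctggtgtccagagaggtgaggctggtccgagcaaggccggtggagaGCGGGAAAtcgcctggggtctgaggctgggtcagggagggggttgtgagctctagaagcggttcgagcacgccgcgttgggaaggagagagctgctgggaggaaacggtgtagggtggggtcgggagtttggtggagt

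Mcm7 held 1 E2F-type match, 165 bases before the start, and 2 CCAAT matches in this stretch, Mcm10 held 2 CCAAT matches, and Cdc6 held 1 E2F-type match 138 bases before the start. No match to these letters lay in the printed stretches of Ccne1, Pole2 and E2f1. The E2f1 stretch reads from its first base as coding sequence of E2f1, so the start listed for it lies inside the gene. Sequence farther upstream of E2f1 was not searched, and its lack of a match says nothing on its promoter. Over the whole 300 bases, at least 1 E2F-type match was present in 13 of the 30 genes with an entry (43.3%). A match was present in 704 (2.61%) of all 27025 genes with an entry. CCAAT was present in 18 of the 30 (60.0%), against 41.1% of all genes in the table. The 30 bases around sites in 4 further places are shown because Mcm6 and Mcm5 held overlapping matches and because Pole2 and Pold1, the genes with the lowest slopes, held theirs after the start. Mcm3, Cdt1 and Lig1 also held theirs only after the start, and had higher slopes of 0.28, 0.27 and 0.29. The Mcm6 matches began 110 and 106 bases before the start (chr1:128359797-128359826, minus strand), and the third began 47 bases before it. The Mcm5 matches began 153 and 149 bases before the start (chr8:75109345-75109374, plus strand). The Pole2 match began at base 11 of the transcript (chr12:69228162-69228191, minus strand) and the Pold1 match at base 40 (chr7:44548766-44548795, minus strand). Capitals mark 1 match in each.
Mcm6 site: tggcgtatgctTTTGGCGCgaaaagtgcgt
Mcm5 site: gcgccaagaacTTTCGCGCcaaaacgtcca
Pole2 site: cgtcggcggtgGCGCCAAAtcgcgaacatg
Pold1 site: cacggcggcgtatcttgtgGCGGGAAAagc

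Slopes on the mitotic score overlapped between genes with and without these letters. The 13 genes with an E2F-type match had slopes from 0.12 to 0.33 with a median of 0.24, and the 17 without had slopes from 0.14 to 0.39 with a median of 0.26. E2f1 was counted among the 17, though its upstream promoter was not searched. A match is a string of letters and says nothing on whether a factor was bound in these tumours.

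Depth recovered from the spacing of low values was 117 to 197 M reads in 14 deep libraries and 42.6 to 61.9 M reads in 16 shallow ones. The fewest reads implied for any of the 38 genes in any library was 216, for Gins3, so none rested on a handful of reads. Markers of luminal epithelium were abundant in every tumour: Epcam ranged from 313 to 711 RPKM and Krt18 from 327 to 765 RPKM. Animal 4036 stood apart by its stroma: the summed level of 21 stroma matrix genes was 7777 RPKM there, the highest, against a median of 1647. It also had the highest sums of 7 adipocyte genes (1618 RPKM against a median of 118) and 9 endothelial genes (158 against 71.7), and the lowest sum of 10 luminal genes (1405 against 2160). None of the 21 stroma matrix genes was at 0 in any tumour. Animal 4150 stood apart in another way. Over genes outside all lists, its values fell by 0.27 log2 units per doubling of transcript length, while the trend in the other 29 animals lay between -0.11 and 0.10. Several of the counts and correlations below are given with and without each of these 2 libraries, and others only with them.

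Levels of the 38 genes spanned a wide range. They ran from 2.17 ± 0.44 RPKM for Gins3, a GINS subunit, to 107 ± 24.4 RPKM for Pcna, the sliding clamp (mean ± SD, n = 30), with a median over genes of 20.7 RPKM. RPKM is scaled to length, so levels were set beside each other. The unit was inferred from the values, and in animal 4150 they still fell with transcript length. Between the lowest and highest tumour a gene changed by 1.80-fold (E2f1) to 5.38-fold (Ccne1), with a median of 2.44-fold. The SD of log2(RPKM + 1) had a median of 0.30 over the 38 genes and 0.27 over all tested genes.

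The 6 subunits of the MCM2-7 helicase ring, which sit in it in equal number, differed in transcript level. Mcm7 ranged from 38.1 to 79.0 RPKM with a median of 61.6, Mcm6 from 28.1 to 79.8 with a median of 48.6, and Mcm5 from 17.7 to 62.1 with a median of 38.7. Mcm3 ranged from 18.5 to 40.5 RPKM with a median of 28.3, Mcm2 from 15.9 to 39.9 with a median of 25.1, and Mcm4 from 14.2 to 34.8 with a median of 24.4. Mcm7 was above Mcm5, Mcm3, Mcm2 and Mcm4 in all 30 tumours and above Mcm6 in 28. Mcm3 was above Mcm2 in 23 of 30, by a median ratio of 1.07. The ratio of the highest to the lowest subunit within a tumour lay between 2.05 and 3.45. Animal 4150 was the lowest tumour for Mcm6, Mcm5 and Mcm2, and animal 4036 for Mcm7 and Mcm3.

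Genes that load and fire the helicase were lower, between 2.17 and 19.7 RPKM on average. Cdt1, which brings MCM to origins, ranged from 10.7 to 28.5 RPKM with a median of 19.2. Cdc6, its partner in loading, ranged from 3.39 to 8.24 RPKM with a median of 5.94, and Orc1, the largest subunit of the origin recognition complex, from 1.81 to 5.99 with a median of 3.61. Orc6, a small subunit, was higher than Orc1, from 9.74 to 23.3 RPKM. Cdc45, a part of the active helicase, ranged from 9.92 to 23.9 RPKM with a median of 16.4. The GINS subunits Gins2 (mean 18.5 RPKM), Gins1 (15.8) and Gins3 (2.17) were unequal, and Mcm10, which helps to activate the helicase, ranged from 4.73 to 12.7 RPKM with a median of 7.91.

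Among polymerase genes the accessory subunit was higher than the catalytic one in each of 2 pairs. Pole2 was above Pole, the catalytic subunit of polymerase epsilon, in 30 of 30 tumours by a median ratio of 2.29. Pola2 was above Pola1, the catalytic subunit of polymerase alpha, in 30 of 30 by 1.98. In primase the order was the other way: Prim1, the catalytic subunit, was above the regulatory Prim2 in 30 of 30 by 1.95. Pole2 ranged from 11.6 to 30.0 RPKM with a median of 18.7, and Pold1, the catalytic subunit of polymerase delta, from 14.2 to 31.97 with a median of 23.3. Where Pole2 and Klhdc1 (4.94 RPKM on average) overlap, their reads cannot be told apart by strand. The labels do not describe a kit that keeps the strand. In all, 17 of the 38 genes overlap another gene of the RefSeq table. They include Fen1 with Tmem258 (147 RPKM on average) and Rfc4 with Eif4a2 (139 RPKM), both far above the replication gene.

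Pcna, the clamp, was the highest of the 38 genes and ranged from 71.7 to 166 RPKM with a median of 100.5. The clamp loader subunits were Rfc2 (mean 47.6 RPKM), Rfc4 (32.8), Rfc3 (30.4) and Rfc5 (29.9). Rpa1 and Rpa2, which coat single-stranded DNA, had means of 40.5 and 25.1 RPKM, and Rpa1 was the higher in 29 of 30 tumours. Rpa1 was 17.4 RPKM in animal 4150 and at least 29.9 RPKM in every other. Of the genes that finish the lagging strand, the ligase Lig1 averaged 37.0 RPKM and the flap nuclease Fen1 21.7. The exonuclease Exo1, grouped with them here, averaged 3.55 RPKM.

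The enzymes of nucleotide supply followed. Rrm2, the S-phase subunit of ribonucleotide reductase, ranged from 42.0 to 126 RPKM with a median of 70.0, and its partner Rrm1 from 31.1 to 80.3 with a median of 48.7. Rrm2 was above Rrm1 in 28 of 30 tumours. Tyms, thymidylate synthase, was lower, with a mean of 12.6 RPKM. Among regulators, Ccne1, the cyclin E1 gene, ranged from 5.35 to 28.8 RPKM with a median of 9.20. Its 2 highest tumours were animals 4030 (28.8) and 4547 (20.6), above the 15.7 RPKM of animal 4459, the next. Ccne2, cyclin E2, was below Ccne1 in 29 of 30 tumours and ranged from 3.87 to 8.71 RPKM. E2f1 had the narrowest range of the 38 by fold, from 5.68 to 10.2 RPKM with a median of 7.76.

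**Figure D1:**
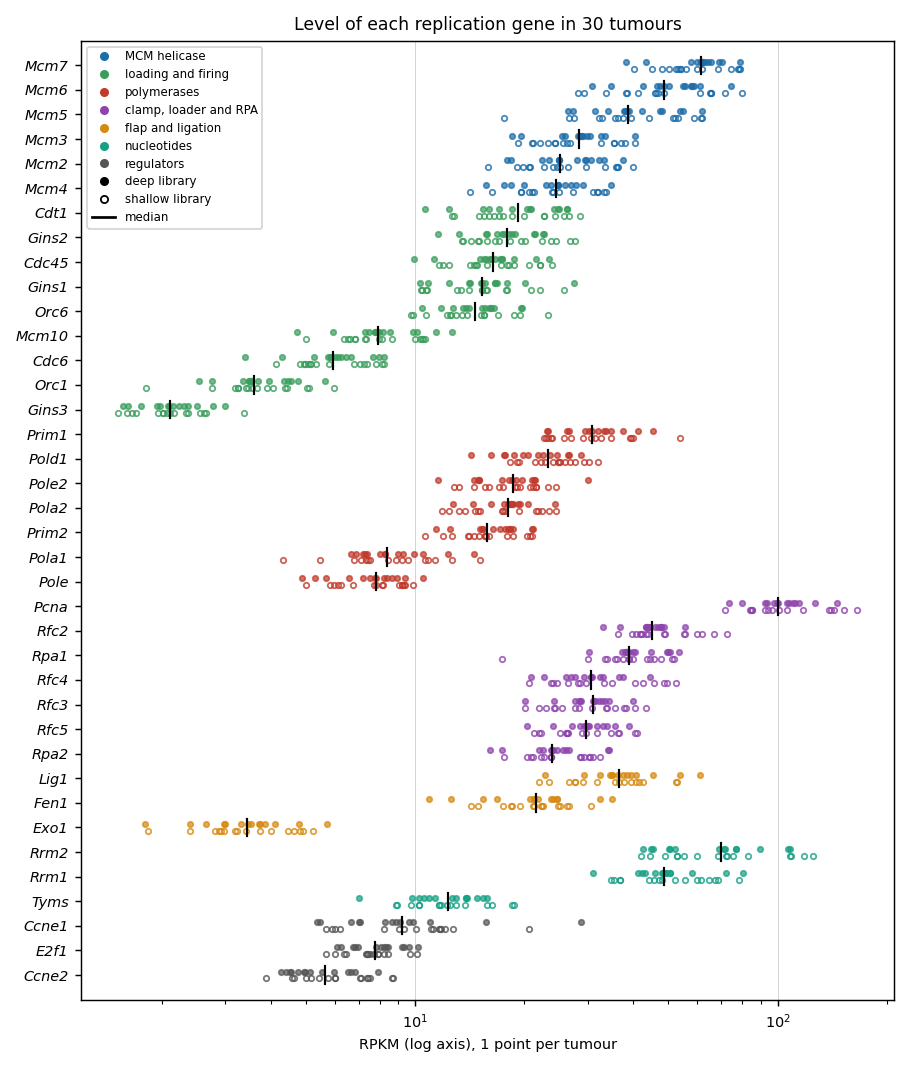
Level of each of the 38 genes in RPKM on a log axis, 1 point per tumour (n = 30), filled for 14 deep and open for 16 shallow libraries, with a bar at the median; colours mark the role of the gene. Pcna lies highest and Gins3 lowest, and the single Rpa1 point at 17.4 RPKM is animal 4150.

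The order of the genes by mean level was sharp at some steps and blurred at most. Of the 37 pairs of neighbours in that order, 14 differed (two-sided permutation test of the paired log2 differences over 30 tumours, 100000 sign changes, Benjamini-Hochberg adjusted p under 0.05) and 23 did not pass. Pcna was above Rrm2 in 28 of 30 tumours by 0.62 ± 0.38 log2 units (mean ± SD of the paired difference, adjusted permutation p = 7.4e-05). Ccne2 was above Orc1, and Exo1 above Gins3, in 30 of 30. By contrast Gins2 and Pole2, both 18.5 RPKM, did not pass (adjusted permutation p = 0.974), nor did Rrm1 and Mcm6 (51.5 and 50.9 RPKM, adjusted permutation p = 0.545). The count was 22 when the 9 genes with more than 1 transcript row were summed over their rows, and 9 in the deep libraries alone.

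The genes were high and low in the same tumours. Animal 4036 was the lowest of the 30 for 16 of the 38 genes and among the lowest 3 for 31. Animal 4144 was the lowest for 10. At the other end animals 4459 and 4438 were each the highest for 8 genes. In animals 4036 and 4144 none of the 38 was above its own median, and in 4459 and 4547 all 38 were. Animal 4150 did not follow this order: it was the lowest for 6 genes, with transcripts of 2910 to 5346 bases. It was the highest for 2, Cdc45 (1747 bases) and Tyms (3163 bases). The 15 genes above their own median there had a median transcript length of 1975 bases (1087 to 7163), and the other 23 had 3014 (1706 to 7796). The part that transcript length played in these values was not tested gene by gene. Lengths, here and in the implied reads above, were those of the GENCODE vM21 transcripts linked to each row. They can differ from the length of the RefSeq transcript itself.

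**Figure D2:**
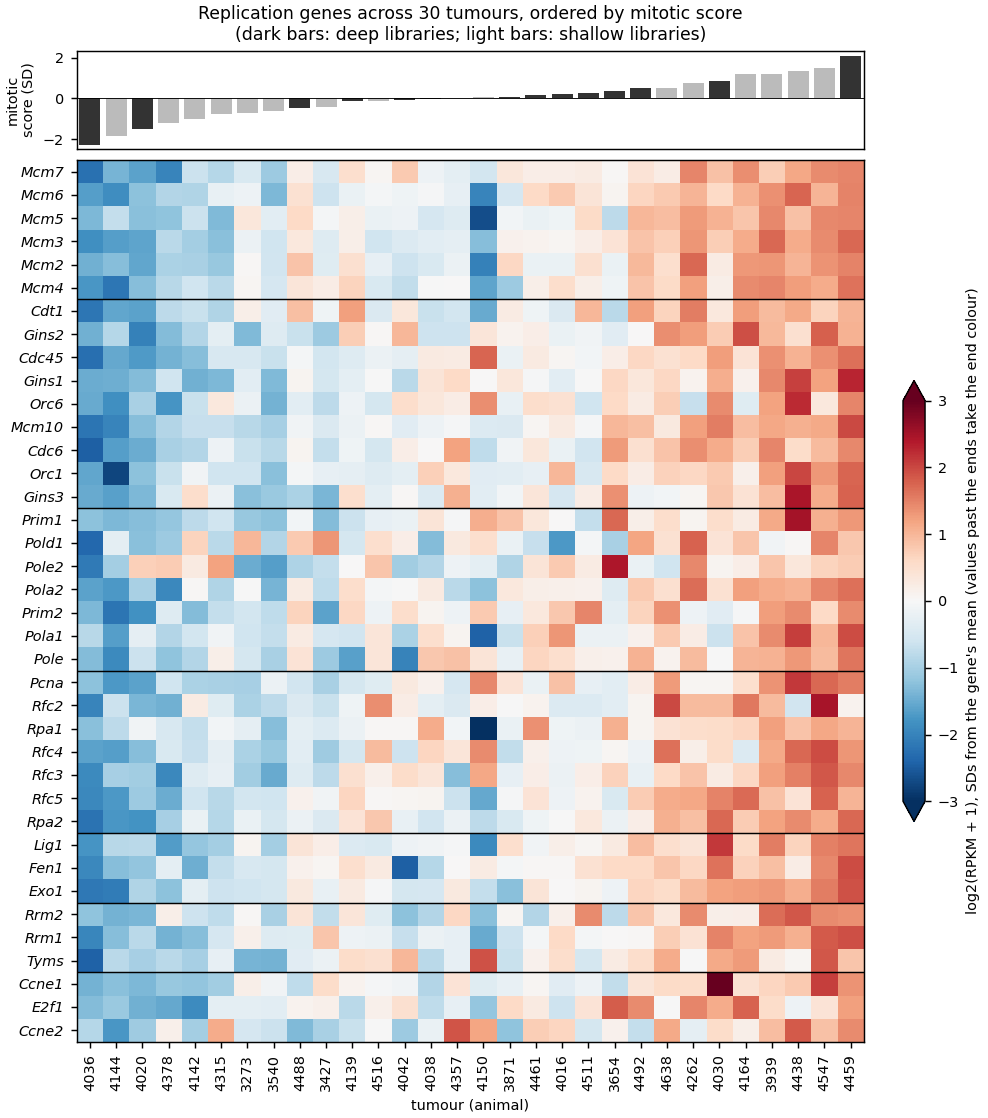
Heat map of the 38 genes (rows, by role) in 30 tumours (columns, animals in order of the mitotic score in the bars above, dark for deep and light for shallow libraries); colour is log2(RPKM + 1) in SDs from the gene's mean. Nearly all rows run from low at animal 4036 to high at animal 4459, and the column of animal 4150 mixes the lowest values of 6 genes with the highest of 2.

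To ask how far replication genes followed mitosis, each gene was set against a mitotic score built from 27 genes of the spindle, kinetochore and mitotic kinases, none of them among the 38. Expression of 37 of the 38 replication genes rose with it, and Pole2 did not pass. Of all tested genes outside the score 10.1% rose. The median slope of the 38 was 0.25 log2(RPKM + 1) units per SD of the score, and that of all tested genes was 0.0048. In bulk tissue, fewer cells of a type and less RNA per cell cannot be told apart, here and in the comparisons that follow. Slopes were fitted with limma across all genes and the p-values adjusted by Benjamini-Hochberg over all of them (n = 30 tumours).

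Every MCM2-7 subunit rose, with slopes from 0.25 (Mcm7) to 0.33 (Mcm6). All 9 genes of loading and firing rose too, from 0.15 (Gins3) to 0.31 (Gins1). Mcm10 had the smallest p of the 38, with a slope of 0.28 ± 0.022 (standard error, limma adjusted p = 6.54e-11). Its level was 4.73 RPKM in animal 4036, the lowest mitotic score, and 12.7 RPKM in animal 4459, the highest. The 7 genes of the clamp, its loader and RPA rose by 0.17 (Rpa1) to 0.28 (Rfc4) per SD, and Fen1, Lig1 and Exo1 by 0.28 to 0.29. Ribonucleotide reductase rose through both subunits (Rrm2 0.34, Rrm1 0.29), and Tyms by 0.22.

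Regulators were at both ends. Ccne1 had the steepest slope of all 38, 0.39 ± 0.059 (limma adjusted p = 1.21e-05), and between 0.36 and 0.41 with any 1 tumour left out. E2f1 was among the shallowest, 0.14 ± 0.029 (limma adjusted p = 6.73e-04), and Ccne2 had 0.17. Polymerase subunits were split: Prim1 rose by 0.25, Pola1 by 0.24 and Pola2 by 0.23, but Pold1 only by 0.13 ± 0.044 (limma adjusted p = 0.0295). Pold1 did not pass without animal 4036 (limma adjusted p = 0.159). Pole2 had a slope of 0.12 ± 0.048 (limma adjusted p = 0.0699), so it lay in the same direction without passing. Whether the slope of Pole2 differed from those of other genes was not tested.

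**Figure D3:**
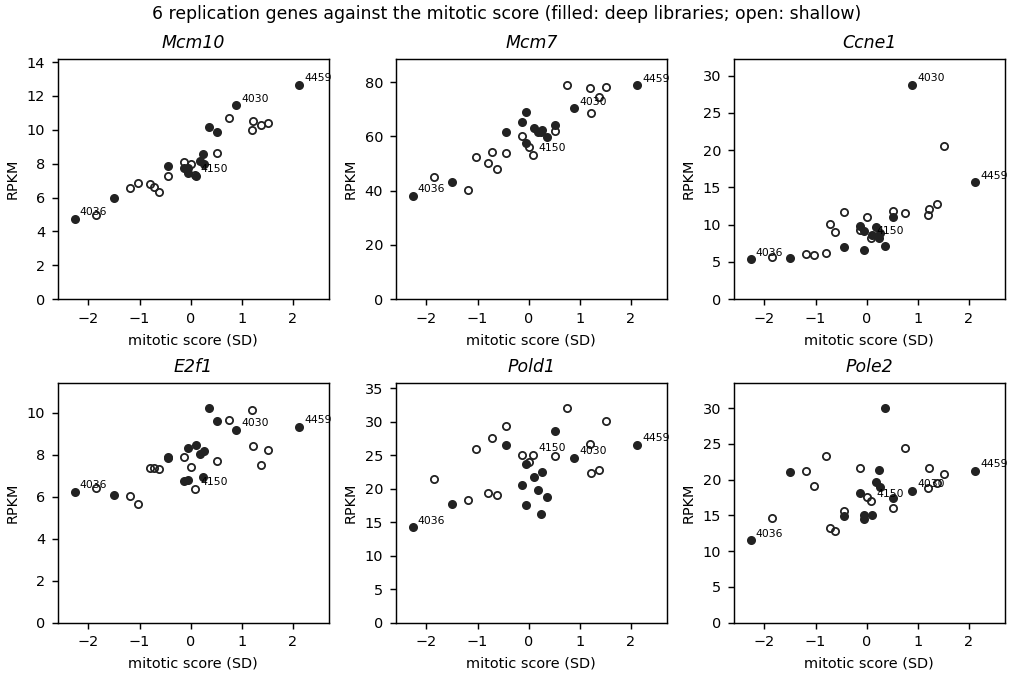
RPKM of Mcm10, Mcm7, Ccne1, E2f1, Pold1 and Pole2 (vertical axes from 0) against the mitotic score in SDs, 1 point per tumour, filled for deep and open for shallow libraries, with 4 animals labelled. Mcm10 and Mcm7 climb along the whole score, Ccne1 is highest in animal 4030 at 28.8 RPKM, and the points of Pold1 and Pole2 scatter widely.

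Within the depth classes 27 of 38 rose in the 14 deep libraries and 29 in the 16 shallow ones, and the count was 36 without animal 4036 and 37 without animal 4150. In neither class alone did 6 genes pass: Gins3, E2f1, Ccne2, Rpa1, Pold1 and Pole2. The slope itself differed between deep and shallow libraries for 0 of the 38 (limma interaction term, 0 at an unadjusted p under 0.05, and 0% of all tested genes). A wider list of 54 other genes of replication, its checkpoints and chromatin assembly was set beside them: 43 rose, 1 fell and 10 did not pass, with a median slope of 0.19. The 3 largest were Gmnn, the inhibitor of CDT1 (0.36), Hells, a chromatin remodeller (0.34), and Chaf1b, a subunit of a histone chaperone (0.31). The 3 lowest were Rb1, which restrains E2F (-0.14, did not pass), its relative Rbl2 (-0.12, fell) and Rrm2b, the reductase subunit used outside S phase (-0.082, did not pass). Of 7 cell cycle inhibitor genes, among them Cdkn1a and Cdkn2a, none passed, and none had an unadjusted p under 0.05 in either direction. Mki67, a proliferation marker on the wider list, ranged from 17.2 to 47.9 RPKM and rose by 0.26.

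Other cell types moved with the same score. Of the 21 stroma matrix genes 18 fell, with a median slope of -0.40 and Col1a1 at -0.41, as did 8 of 9 endothelial and 3 of 6 tested adipocyte genes, against 8.17% of all tested genes. Of 8 macrophage genes 1 fell, a share near that of all genes. None of 10 luminal epithelial genes passed, Epcam and Krt18 included. The part of cell makeup in the slopes was not tested directly, so the stroma was set against the replication genes next.

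With the stroma matrix score, 19 of the 38 fell and none rose. Of all tested genes 10.5% fell. The median slope was -0.14, against -0.016 for all tested genes. Among genes of loading and firing 8 of 9 fell, and in the MCM ring 1 of 6 (Mcm7). This contrast depended on animal 4150. Without that animal Mcm2, Mcm3, Mcm4, Mcm6 and Cdt1 fell as well, and Mcm5 did not pass (limma adjusted p = 0.068). Without animal 4036 Mcm7 did not pass (limma adjusted p = 0.125). Whether the roles differed was not tested. The 4 largest were Rfc4 at -0.23 ± 0.052 (limma adjusted p = 0.00252), Prim1 at -0.22, Pcna at -0.20 and Rfc3 at -0.20. None of the regulators Ccne1, Ccne2 and E2f1 passed. Of the wider list of 54 genes 23 fell and 1 rose, with a median slope of -0.11. The lowest were Gmnn (-0.27), Rpa3, the small RPA subunit (-0.24), and Cdc7, the kinase that fires origins (-0.22), and the highest were Rb1 (0.22, rose), Ticrr (0.085, did not pass) and Rbl2 (0.070, did not pass).

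That count depended on single tumours. Without animal 4036, which had the highest stroma score, 8 of 38 fell with a median slope of -0.10. Without the 2 tumours farthest from the median score 6 fell with a median slope of -0.071, and within the deep and within the shallow libraries 4 each. Without animal 4150, whose stroma score was the second lowest and whose long transcripts were low, 30 fell. Over the 30 tumours the mitotic and stroma matrix scores were related (Pearson r = -0.62, permutation p = 3.4e-04, adjusted over 15 pairs 0.0017; Spearman rho = -0.66, permutation p = 1.3e-04, adjusted 6.5e-04). The r was -0.52 without the 2 tumours farthest from the median mitotic score, -0.73 in deep and -0.54 in shallow libraries.

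Fitted together, the 2 scores were unequal for these genes. With the mitotic score held fixed, 1 of the 38 passed on the stroma score: Lig1, which rose by 0.14 ± 0.045 (limma adjusted p = 0.0453). Of all tested genes 7.4% passed in either direction. In either direction the count was 0 to 3 under the alternatives run, except without the 2 tumours farthest from the median score, where 3 rose and 2 fell. Of the wider list 2 of 54 passed: Ticrr, which takes part in origin firing, rose by 0.24 and Cdc7 fell by 0.16. With the stroma score held fixed, 35 of the 38 still rose with the mitotic score, against 4.92% of all tested genes; Ccne2, Pold1 and Pole2 did not pass. In the 14 deep libraries alone that count was 3, and in the 16 shallow ones 27. Of the wider list 33 of 54 rose, most steeply the repressor E2f8 (0.36), with Uhrf1, which maintains DNA methylation, and Hells at 0.34 each.

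**Figure D4:**
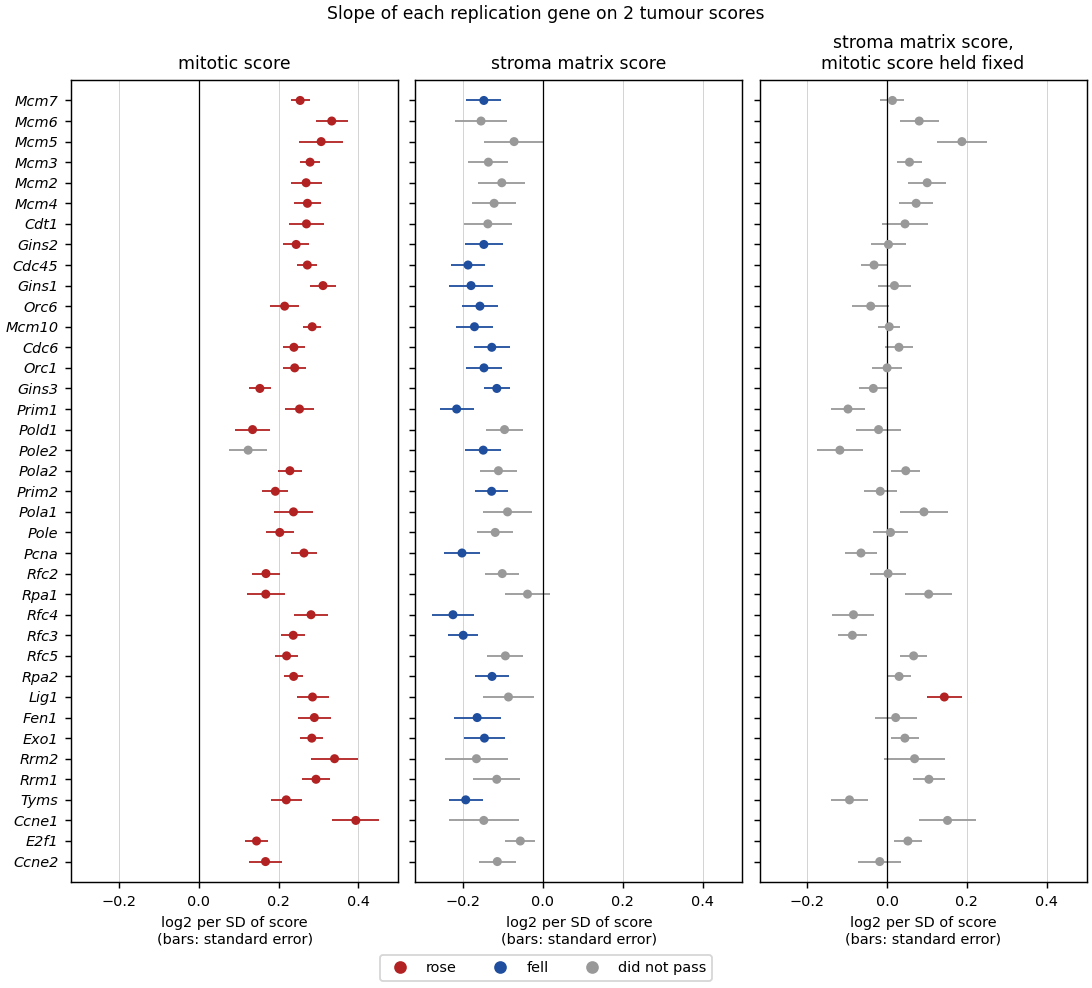
Slope of each of the 38 genes on the mitotic score (left), the stroma matrix score (middle) and the stroma matrix score with the mitotic score held fixed (right), in log2(RPKM + 1) units per SD of the score, with bars of 1 standard error; red rose, blue fell and grey did not pass. The left points all lie above 0, the middle points all below 0, and the right points lie on both sides with only Lig1 passing.

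Replication genes also rose with a nucleolar score of 16 genes of ribosome assembly. The count was 37 of 38, against 12.6% of all tested genes, with Pold1 not passing (slope 0.11, limma adjusted p = 0.0995) and the largest slopes in Ccne1 (0.38) and Gins1 (0.29). Of the wider list 41 rose, with Gmnn (0.36), Hells (0.30) and Dbf4 (0.30) the largest, 1 fell, Rbl2 (-0.15), and Rb1 (-0.14) and Rrm2b (-0.079) did not pass. The mitotic and nucleolar scores were closely related over the tumours (Pearson r = 0.90, permutation p = 1e-05, the smallest that 100000 permutations can give, adjusted 1.5e-04; Spearman rho = 0.93, permutation p = 1e-05, adjusted 1.5e-04). The r was 0.88 without the 2 farthest tumours, 0.87 in deep and 0.93 in shallow libraries. With the mitotic score held fixed, none of the 38 passed on the nucleolar score, against 0.427% of all tested genes. With the nucleolar score held fixed, 9 rose with the mitotic score, against 0.295% of all tested genes: Mcm2, Mcm3, Mcm4, Mcm6, Mcm7, Mcm10, Pola2, Exo1 and Rrm2. The count was 0 in the deep and 0 in the shallow libraries alone and 5 without animal 4144. On the same fit 4 of the wider 54 rose, led by E2f7 (0.49), E2f8 (0.44) and Ccna2, the cyclin A2 gene (0.40).

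Other tumour features left no call. On a hypoxia score of 16 genes none of the 38 passed and 2 had an unadjusted p under 0.05, against 0.316% of all tested genes that passed (limma). Slopes on that score ran from -0.028 (Pole2) to 0.17 (Ccne1), and all but those of Pole2 and Rpa1 were above 0. Without the 2 tumours farthest from the median hypoxia score their median was 0.027, against -0.012 for all tested genes. On the mean insert size given in the labels none passed and none had an unadjusted p under 0.05, against 0.0367% of all tested genes (limma). Between deep and shallow libraries none passed and 1, Pold1, had an unadjusted p under 0.05, against 1.24% of all tested genes (limma). A p that misses the threshold does not show that levels were equal.

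The genes were correlated with one another. Over the 703 pairs, the median Pearson r of log2(RPKM + 1) across the 30 tumours was 0.65, and 554 pairs (78.8%) had an r of at least 0.5. Over all 92650078 pairs of tested genes the median was 0.014, and 5.18% had an r of at least 0.5. The adjusted permutation p (two-sided, adjusted over the 703 pairs) was under 0.05 for 649 pairs with Pearson's r and for 648 with Spearman's rho, and no r was negative. The median was 0.69 in the deep and 0.70 in the shallow libraries, 0.63 without animal 4036 and 0.71 without animal 4150. When the 2 tumours lying farthest out in the first gene were dropped, the median was 0.64 and 2 pairs turned negative.

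Pairs within the MCM ring were the tightest of the complexes. Their 15 values lay between 0.79 and 0.95 with a median of 0.89, and Mcm2 with Mcm3 was the highest pair of all (Pearson r = 0.95, Spearman rho = 0.96, both with an adjusted permutation p of at most 3.24e-05). The 2 subunits of the origin recognition complex reached 0.79, the clamp loader had a median of 0.70 over 6 pairs, and Rrm1 with Rrm2 0.67. Pole with Pole2 reached only 0.46 and Ccne1 with Ccne2 0.47. Across complexes, Mcm7 with Pola2 (0.93) and Mcm10 with Exo1 (0.93) were as high as pairs of the ring. Pole2 was least like the rest, with a mean r of 0.35 and 17 of its 37 pairs passing, followed by Pold1 with a mean of 0.41. Mcm10 was most like the rest, with a mean r of 0.77 and all 37 pairs passing.

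**Figure D5:**
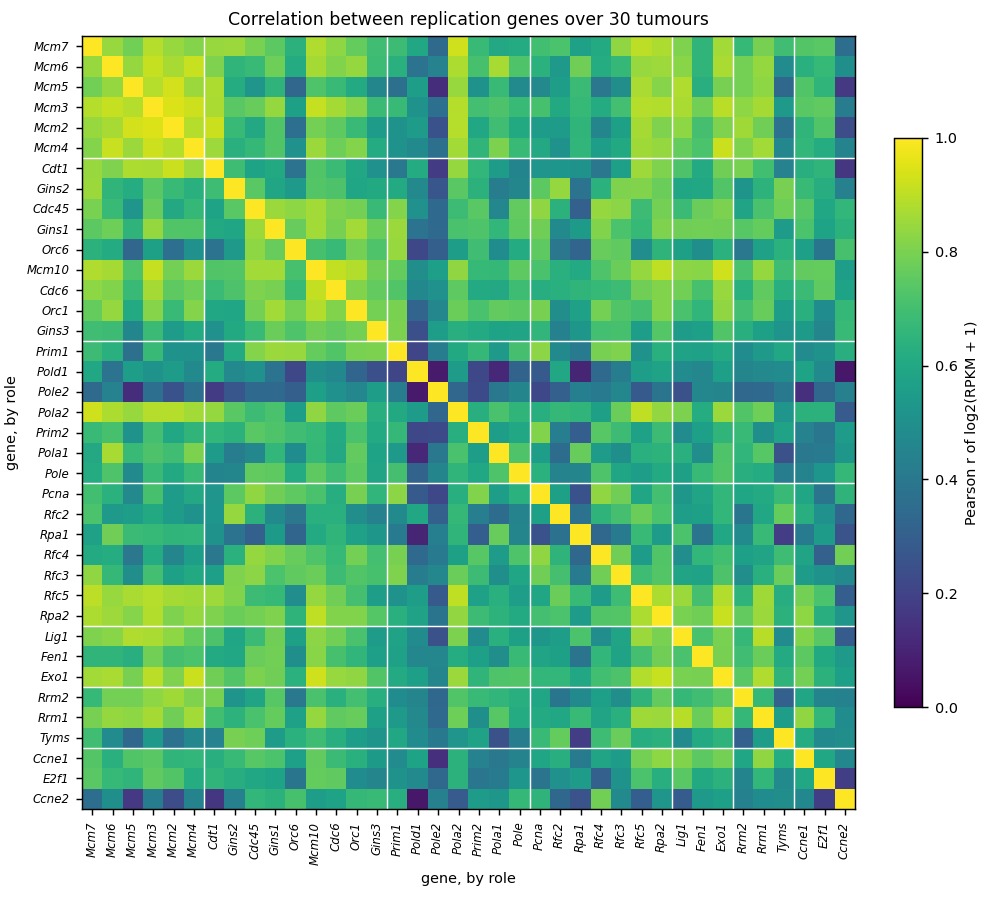
Pearson r of log2(RPKM + 1) over 30 tumours between each 2 of the 38 genes, ordered by role with white lines between roles, from 0 (dark) to 1 (yellow). The MCM2-7 block at the upper left is uniformly high, between 0.79 and 0.95, and the Pole2, Pold1 and Ccne2 rows are darker than the others.

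Outside the list, the genes most like the average of the 38 standardised profiles over the 30 tumours included Melk (Pearson r = 0.95), Bub1b (0.95), Tpx2 (0.95), Ttk (0.94), Lmnb1 (0.94), Kif20a (0.94), Tacc3 (0.94) and Trip13 (0.94). The likeness is a description over 30 tumours that share libraries and depth. Bub1b, Ttk, Tpx2 and Kif20a, which act in mitosis, belong to the mitotic list. Lmnb1, a lamin of the nuclear envelope, belongs to neither list.

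What was left of each gene after its fit to the mitotic score differed widely. For Mcm10 9.74% of its variance was left, for Mcm7 16.2%, for Pold1 75.2% and for Pole2 81.4%. Animal 4150 is included in these shares, and had the lowest remainder of all tumours for Rrm1 and the highest for Pcna. For each gene, the 20 tested genes whose remainders were most correlated with its own were looked up by chromosome in the RefSeq table of GRCm38.p6, and the genes named next were chosen after their values were seen. Rrm1, on chromosome 7, had 18 of 20 on its own chromosome, a count that 1.38% of all tested genes reached. It was 16 with depth class in the fit and 16 without the 2 tumours farthest from the median. The median over all tested genes was 2 of 20. Pcna had 11 of 20 on chromosome 2, which 6.77% of all tested genes reached, and 17 without its 2 farthest tumours. Pold1 (chromosome 7) and Rpa1 (chromosome 11) also had 11, but 5 and 9 without their 2 farthest tumours. Lig1 (chromosome 7) had 9, which 9.12% of all tested genes reached, and 15 without its 2 farthest tumours. Tyms (chromosome 5) had 7, which 12.6% reached, and 12 without its 2 farthest tumours. Ccne1 had 12 of 20 on chromosome 7, which 5.68% reached, but 1 without its 2 farthest tumours, of which animal 4030 was the highest.

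Pole2 had 7 of 20 on chromosome 12, a count that 12.6% of all tested genes reached, and 10 without its 2 farthest tumours. Among them were 9330151L19Rik (r = 0.78) and Dnaaf2 (r = 0.77), the next 2 genes beside it in the RefSeq order. Animal 3654, the highest tumour for Pole2 at 30.0 RPKM, had a mitotic score of 0.35. These are correlations of remainders over 30 tumours, given without a test, and the labels give no genotype of the backcross mice to set beside them.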

How the data were processed

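Libraries of poly-A RNA, 1 per tumour, were cut to a size range on a gel, as the labels' protocols describe. Per the file headers the authors deposited 27902 RefSeq transcripts by 30 animals, and the unit, RPKM, was inferred from the values. The submitters' processing notes name CASAVA 1.7.0; genome build, aligner settings and the library size used are not given in the sources. Rows were named from RefSeq (26486) and GENCODE vM21 (158), leaving out 1258. Library depth came from the step between low values of transcripts between 150 and 2500 bases long: 56.3 to 73.2% of them sat within 0.12 of a multiple of the step, where 24% would by chance. Counts could not be rebuilt at that share. The split into deep and shallow libraries was made after the file had been seen and treated as technical.

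The scale was log2(RPKM + 1), on which low genes change less than they do in RPKM, and genes with a mean below 1 RPKM were not tested. A score is the mean of its standardised list genes in SD units. Fits used limma 3.58.1 (trend, two-sided, adjusted p under 0.05) in R 4.3.3, and permutations Python 3.11.15; both were tested on simulated data. Each animal gave 1 library, so errors hold biological and technical spread alike. The 38 genes and all lists were chosen with earlier results of these data known. Genes named in the text were the 38, the 10 named genes outside them nearest their mean profile, the 3 largest and 3 smallest slopes of the wider list in fits that made calls, and the markers Mki67, Tpx2, Col1a1, Epcam and Krt18, with exceptions said where they stand. Some genes that met this rule are not reported here. Fits of the mitotic score at a fixed stroma or nucleolar score, and the transcript length covariate, were added after seeing the data.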

Additional observations from a re-analysis of the deposited data

How the results depend on the processing

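The rise with the mitotic score held for 27 to 38 of the 38 genes under all 43 alternatives, and the fall with the stroma matrix score for 4 to 30. That fall gave 4 genes in the deep libraries, 4 in the shallow libraries and 6 without the 2 tumours farthest from the median score, and 8 to 30 with single tumours left out. The lowest of these was without animal 4036. The median slope, -0.14 in all tumours, was -0.16 in the deep libraries, -0.12 in the shallow libraries and -0.071 without the 2 farthest tumours. Its slope turned positive, without passing, for Rpa1 in the shallow libraries (0.033), for Mcm5 (0.036), Pola1 (0.011), Rpa1 (0.043) and Lig1 (0.0057) without the 2 farthest tumours, and for Rpa1 without replicate 10, which is animal 4036 (0.0064, within a range of -0.13 to 0.0064 over single tumours left out); the cause was not tested. The rise with the nucleolar score gave 22 genes in the deep libraries. With the mitotic score held fixed, the count on the stroma matrix score, 1 in the report, was 2 with quantile normalization or insert size as covariate. It was 5 without the 2 farthest tumours (3 rose and 2 fell), 0 with depth class or the transcript length trend as covariate and in either depth class, and 0 to 3 with single tumours left out, 3 each without animals 4036 and 4438. The rise with the mitotic score at a fixed stroma matrix score gave 3 genes in the deep libraries, and at a fixed nucleolar score 0 in the deep, 0 in the shallow and 5 to 12 with single tumours left out. The number of neighbours in level that differed was 22 with transcript rows summed and 9 in the deep libraries. Pairs passing lay between 514 and 666. No paired analysis was possible because the tumours form 1 group and the replicate numbers only name them. The fewest reads implied by the recovered depth for any of the 38 genes in any library was 216. Whether depth limited the calls was not tested.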
